A study of Mus musculus with 7 samples.

Results

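The liver breaks down amino acids that are not needed for protein synthesis, and the transcripts of 36 enzymes of these pathways were examined among the 51826 genes of the count table. The members were taken by name and every name was found: 3 enzymes of serine and alanine, 7 of glycine, 4 of histidine, 4 of tyrosine, 5 of tryptophan, 6 of methionine, 3 of proline and ornithine, 2 of the branched chain amino acids, and 1 each of aspartate (Got1) and lysine (Aass). RNA was sequenced from whole liver of untreated male C57BL/6J mice at 6 months of age, 3 wild type and 4 homozygous for the Sprtn Y118C knock-in allele. Sprtn is a protease that clears proteins crosslinked to DNA, and the labels name no tissue restriction of the allele. The labels do not say that each library is a separate animal, so p-values measure only the spread between these libraries, which may be technical.

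Amino acid catabolism is a function of hepatocytes, in which each amino acid is stripped of its nitrogen and its carbon skeleton is passed to glucose, ketone bodies or the citric acid cycle. Many of the enzymes are induced by fasting, through glucagon and glucocorticoids, and by dietary protein. Several, among them Sds, Hal and Gls2, are known to be made mainly by the periportal hepatocytes, which receive blood from the gut first, whereas Oat and Glul are made around the central vein.

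All 36 genes passed the filter on low counts, with 376 to 150076 counts per gene and library, in libraries of 36928472 to 46755357 counts. Their summed level was 20977, 23159 and 24442 CPM (counts scaled to a common library size and composition) in the wild-type libraries and 21012, 19901, 18889 and 20392 CPM in knock-in livers. Wild-type replicate 1 stood with the knock-in libraries along principal component 1 (29.5% of the variance), at -9.56 beside their -26.4 to -7.95, whereas the remaining wild-type libraries scored 32.5 and 36. In knock-in replicate 1 the 8 muscle markers added up to 76.5 CPM, and in every other library to less than 1.2 CPM. Adipose markers (5 genes, Lep at 0) summed to 0.0499 to 0.208 CPM in wild-type and 0.583 to 1.92 CPM in knock-in libraries, and kidney markers (6 genes, Kap at 0) to 0.405 to 1.90 CPM in all. Of the 5 adipose markers only Cfd passed the filter on low counts, with a log2 difference of 4.62. It was not called in edgeR, whereas DESeq2 called it higher (1.03% of all genes). All its knock-in values lay above all wild-type values (5.48% of all genes). The hepatocyte markers Alb, Ttr, Apoa1, Apoh, Serpina1c, Fgb and Ahsg summed to 70885 to 99314 CPM in every library. All 7 had a log2 difference below 0, with a median of -0.15. At an unadjusted p under 0.05 in edgeR 0 of them were lower (4.97% of all genes). Without wild-type replicate 1, 5 of the 7 were below 0 (median -0.18), and without knock-in replicate 1 also 5 (median -0.09). Because the tissue is a mixture, fewer cells of a type and less RNA per cell cannot be told apart.

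Most of the enzymes had lower transcript levels in the knock-in, and none passed the test across all genes. Of the 36 genes, 28 had a log2 difference (knock-in minus wild type) below 0 and 8 above, with a median of -0.22, where all 13989 tested genes had 49.9% below 0 and a median of 0.001. The differences ran from -1.15 for Sdsl to 0.35 for Bhmt. At an adjusted p under 0.05 in edgeR's quasi-likelihood test (Benjamini-Hochberg over all genes), 0 of the 36 were called, where 0.0357% of all genes were called (0.00715% lower and 0.0286% higher). At an unadjusted p under 0.05, 12 of the 36 (33.3%) were lower and 0 were higher, where 4.97% of all genes were lower and 5.60% higher. All 4 knock-in libraries lay below all 3 wild-type libraries for 7 of the 36 (19.4%), against 5.46% of all genes, and above them for 0, against 5.48%. The 36 were chosen with earlier results of these data known, so their shares beside those of all genes are a description and not a test. DESeq2 called 5 of the 36, all lower (Sds, Sdsl, Agxt, Uroc1 and Ahcy), where it called 0.558% of all genes lower. The edgeR likelihood ratio test called Sds and Sdsl lower, against 0.415% of all genes, and limma-voom called 0 of the 36, against 0.0143%. The authors' deposited table held Sds, Sdsl and Agxt at a corrected p under 0.05, all lower, where 0.195% of its genes were called lower and 0.438% higher.

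**Figure D1:**
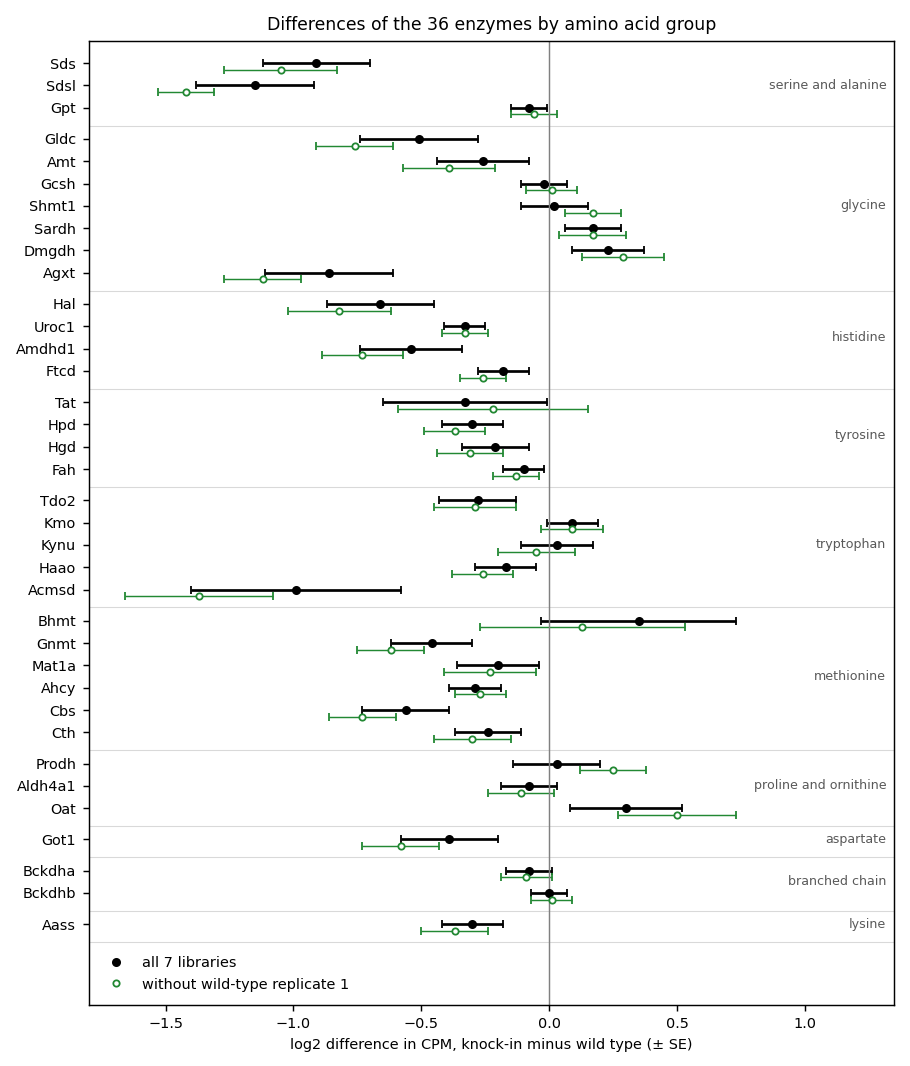
Log2 difference in CPM (knock-in minus wild type, x axis, with SE) of each of the 36 enzymes, in order of amino acid group, from all 7 libraries (black) and without wild-type replicate 1 (green, open). The serine enzymes Sdsl (-1.15) and Sds (-0.91), Acmsd (-0.99) and Agxt (-0.86) stand furthest to the left, and the branched chain enzymes lie at about 0.

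Several calls depended on which libraries were used. Wild-type replicate 1 was the lowest of the 3 wild-type libraries for 19 of the 36 genes (52.8%, against 35.4% of all genes) and lay inside the knock-in range for 25 (69.4%, against 56.5%). Without it, edgeR called Sdsl and Agxt lower (adjusted p = 0.00412 and 0.0334), where 0.24% of all genes were called lower, and the median of the 36 was -0.27. Without both that library and knock-in replicate 1, Sdsl was called (edgeR adjusted p = 0.0178; 0.0427% of all genes were called lower). With each other single library left out, edgeR called 0 of the 36. When wild-type replicate 2 was left out, 7 of the 36 were lower at an unadjusted p under 0.05 instead of 12 (2.58% of all genes) and 0 were higher (3.31%), and the median of the 36 was -0.17. Without wild-type replicate 3 the counts were 7 lower (4.86%) and 1 higher (5.77%), with a median of -0.14.

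**Figure D2:**
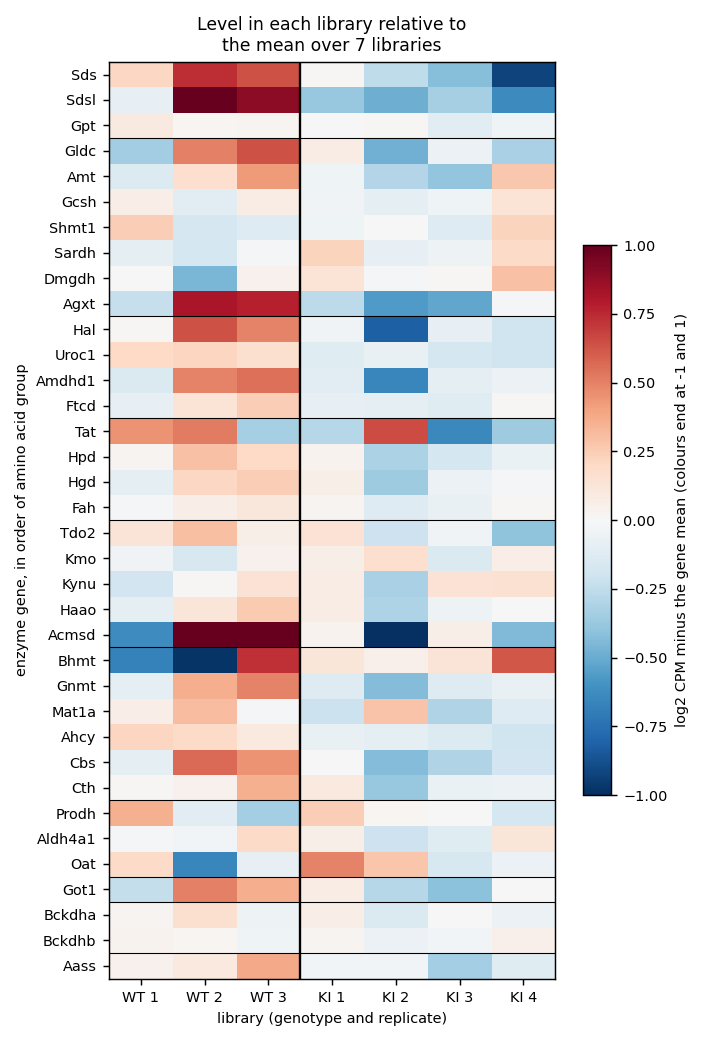
Level of each enzyme in each library as log2 CPM minus the gene's mean over the 7 libraries (red above, blue below the mean; colours end at -1 and 1), with enzymes in rows by amino acid group and libraries in columns. Wild-type replicates 2 and 3 are red for Sds, Sdsl, Gldc, Agxt, Hal, Amdhd1, Acmsd and Cbs. In these rows, except Sds, wild-type replicate 1 is nearer to the knock-in columns.

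Markers of the lobule's zones, listed without the 36 enzymes but chosen with earlier results of these data known, differed between the same libraries. The 17 pericentral markers summed to 14083 CPM in wild-type replicate 1, to 7346 and 7250 CPM in the other wild-type libraries, and to 12126 to 13200.0 CPM in knock-in livers. All 17 had a log2 difference above 0, with a median of 0.37. In edgeR 0 passed, and 6 were higher at an unadjusted p under 0.05 (5.60% of all genes). For 4 of the 17 all knock-in values lay above all wild-type values (5.48% of all genes). DESeq2 called 4 of them higher, where it called 1.03% of all genes higher. Without wild-type replicate 1 their median was 0.77 and edgeR called 4 higher, where 0.451% of all genes were called higher. The 16 periportal markers summed to 15423 to 19334 CPM in wild-type livers against 13232 to 15002 CPM in knock-in livers, with 14 of 16 below 0 and a median of -0.33. Of these 16, 0 passed in edgeR, and 5 were lower and 1 higher at an unadjusted p under 0.05 (4.97% and 5.60% of all genes). All knock-in values lay below all wild-type values for 4 (5.46% of all genes). DESeq2 called 3 of the 16 lower (0.558% of all genes), and so did edgeR without wild-type replicate 1 (0.24%). In the same libraries 8 Kupffer cell and macrophage markers summed to 196 to 269 CPM in wild-type livers against 131 to 166 CPM in knock-in livers, with 8 of 8 below 0 and a median of -0.56. In 6 of the 8 all knock-in values lay below all wild-type values (5.46% of all genes), and 6 were lower at an unadjusted p under 0.05 (4.97%). DESeq2 called 6 lower (0.558% of all genes) and edgeR called 1, Timd4 (0.00715%). No marker of these 3 lists was at 0 in every library. Their part in the enzymes' differences was not tested.

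**Figure D3:**
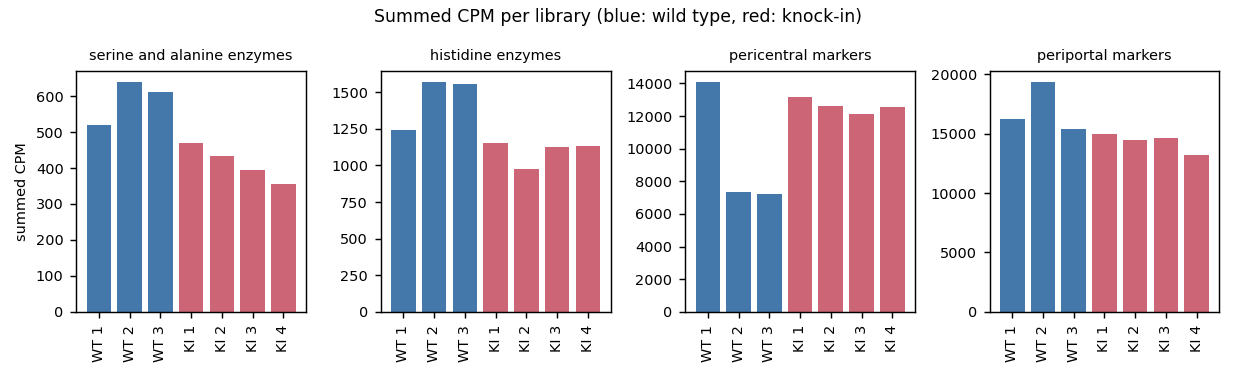
Summed CPM in each library (bars from 0; blue wild type, red knock-in) of the serine and alanine enzymes, the histidine enzymes, and the pericentral and periportal markers. The serine and alanine enzymes sum to 519 to 639 CPM in wild-type livers against 354 to 469 CPM in knock-in livers, and the pericentral bar of wild-type replicate 1 (14083 CPM) is above the knock-in bars.

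Serine is turned directly into pyruvate and ammonia by serine dehydratase, encoded by Sds, and Sdsl encodes a related serine dehydratase-like enzyme. The pair are neighbours on chromosome 5 of mm10, with Sdsl on the minus strand (120458186 to 120472810) and Sds on the plus strand (120476526 to 120483932), 3715 bases apart. Sds had 254, 366 and 342 CPM in the wild-type libraries and 222, 184, 163 and 116 CPM in knock-in livers. Every knock-in library was below every wild-type library, and the knock-in mean was 53.4% of the wild-type mean. The fitted difference for Sds was -0.91 on the log2 scale (SE 0.21; edgeR adjusted p = 0.257; exact two-sided permutation p = 0.0286, the smallest that 35 splits of 3 against 4 libraries allow). Without wild-type replicate 1 it was -1.05 (edgeR adjusted p = 0.0828), DESeq2 called it (adjusted p = 0.00659) and the authors' deposited table gave a corrected p of 0.00163. Over all single libraries left out, the difference ran from -1.05 to -0.76 and the edgeR adjusted p from 0.0828 to 0.732. Of the exonic bases of Sds, 29.6% also lie in exons of Plbd2 or Gm15690 on the opposite strand, which an unstranded library does not separate.

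Sdsl had 16.1, 34.8 and 31.7 CPM in wild-type livers against 13.1, 12.1, 13.5 and 10.9 CPM in knock-in livers. Again no library overlapped between the genotypes, but wild-type replicate 1 stood close to the knock-in values. Sdsl differed by -1.15 on the log2 scale (SE 0.23), the most negative of the 36 (edgeR adjusted p = 0.191; exact permutation p = 0.0286). Without wild-type replicate 1 it was -1.42 with an SE of 0.11 (edgeR adjusted p = 0.00412), and over all single libraries left out it ran from -1.42 to -0.94 (edgeR adjusted p up to 0.672). DESeq2 gave an adjusted p of 9.55e-04 and the authors' deposited table a corrected p of 1.31e-05. Gpt, the cytosolic transaminase that turns alanine into pyruvate, had 249, 238 and 238 CPM in wild-type livers against 234, 236, 217 and 228 CPM in knock-in livers. Its groups did not overlap either, yet the difference was small, -0.08 with an SE of 0.07 (edgeR adjusted p = 0.726; exact permutation p = 0.0571). Of 5 other measured genes of these pathways, Srr, Shmt2, Gpt2, Gcat and Agxt2, 0 had an unadjusted p under 0.05 in edgeR and their differences ran from -0.08 to 0.14.

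Histidine is degraded in 4 steps, by histidine ammonia-lyase (Hal), urocanase (Uroc1), imidazolonepropionase (Amdhd1) and the bifunctional formiminotransferase cyclodeaminase (Ftcd), which hands the last carbon to folate. All 4 genes had differences below 0, from -0.66 to -0.18, and their summed level was 1239, 1568 and 1554 CPM in wild-type livers against 1153, 972, 1127 and 1134 CPM in knock-in livers. Because 3 of its 4 genes had an unadjusted p under 0.05, the promoters of this pathway are shown, as the 250 bases before each transcription start in RefSeq's GRCm38.p6 annotation, on the gene's own strand. Hal lies at chr10:93488518-93488767 (plus), Uroc1 at chr6:90333039-90333288 (plus), Amdhd1 at chr10:93540034-93540283 (minus) and Ftcd at chr10:76575398-76575647 (plus). The RefSeq start used for Uroc1 lies a few bases inside the GENCODE gene. Capitals mark matches, on either strand, to a half-site of the cyclic AMP response element (TGACG), a C/EBP site (TTNNGCAA), an HNF1 half-site (GTTAAT) or a glucocorticoid receptor half-site (TGTTCT).
Hal: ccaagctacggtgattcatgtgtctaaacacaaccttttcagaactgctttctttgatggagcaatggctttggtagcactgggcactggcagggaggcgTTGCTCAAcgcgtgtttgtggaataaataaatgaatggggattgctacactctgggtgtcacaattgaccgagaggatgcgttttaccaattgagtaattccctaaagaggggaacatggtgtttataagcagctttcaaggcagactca
Uroc1: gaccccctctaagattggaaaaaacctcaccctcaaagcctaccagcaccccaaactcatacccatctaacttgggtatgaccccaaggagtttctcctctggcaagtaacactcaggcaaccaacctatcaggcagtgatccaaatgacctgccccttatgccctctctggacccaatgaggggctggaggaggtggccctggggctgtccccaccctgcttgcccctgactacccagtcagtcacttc
Amdhd1: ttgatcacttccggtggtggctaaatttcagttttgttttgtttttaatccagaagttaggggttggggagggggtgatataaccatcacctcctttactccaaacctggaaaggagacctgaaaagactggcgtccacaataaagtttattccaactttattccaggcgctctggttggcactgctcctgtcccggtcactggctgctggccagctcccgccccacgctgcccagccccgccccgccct
Ftcd: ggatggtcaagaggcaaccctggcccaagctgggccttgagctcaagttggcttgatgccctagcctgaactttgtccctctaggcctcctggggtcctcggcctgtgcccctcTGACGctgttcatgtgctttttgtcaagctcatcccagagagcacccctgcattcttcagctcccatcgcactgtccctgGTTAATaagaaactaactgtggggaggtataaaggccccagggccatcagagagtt

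The Hal promoter held 1 C/EBP match, the Ftcd promoter held 1 cyclic AMP half-site and 1 HNF1 half-site, and the Uroc1 and Amdhd1 windows held none of the 4 motifs. Among all 32851 promoter windows of this length, 17.8% held TGACG, 9.56% TTNNGCAA, 6.43% GTTAAT and 16.1% TGTTCT. Of the 31 windows that matched 30 of the 36 enzymes, 4, 3, 3 and 3 held them. Promoters of Sds, Sdsl, Gpt, Kynu, Mat1a and Cth are not shown. A match is a description of the letters only.

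Uroc1 (chromosome 6, 90333284 to 90364551) had the tightest values of the group, 393, 396 and 382 CPM in wild-type livers against 314, 324, 303 and 298 CPM in knock-in livers. Here wild-type replicate 1 stood with the other wild-type libraries, and the groups were well apart. The difference was -0.33 with an SE of 0.08 (edgeR adjusted p = 0.25; exact permutation p = 0.0286), and it stayed between -0.35 and -0.32 whichever library was left out. DESeq2 called it (adjusted p = 4.39e-04), while the authors' deposited table gave a corrected p of 1. Hal (chromosome 10, 93488768 to 93519304), which catalyses the first and committed step, had 317, 488 and 443 CPM in wild-type livers against 306, 178, 298 and 274 CPM in knock-in livers. Its groups did not overlap, although wild-type replicate 1 lay close to knock-in replicate 1, and the difference was -0.66 with an SE of 0.21 (edgeR adjusted p = 0.346; exact permutation p = 0.0286).

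Amdhd1 lies 4033 bases beyond Hal on the opposite strand (chromosome 10, 93523338 to 93540033). It had 181, 281 and 292 CPM in wild-type livers against 186, 127, 188 and 191 CPM in knock-in livers. Wild-type replicate 1 lay inside the knock-in range, and the difference was -0.54 with an SE of 0.20 (edgeR adjusted p = 0.392; exact permutation p = 0.114). Ftcd had 348 to 437 CPM in wild-type livers against 338 to 371 CPM in knock-in livers, a difference of -0.18 with an SE of 0.10 (edgeR adjusted p = 0.541). Of the one-carbon genes that receive its product, Aldh1l1, Mthfd1 and Aldh1l2, and of Hdc, which makes histamine from histidine, 0 had an unadjusted p under 0.05 in edgeR.

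**Figure D4:**
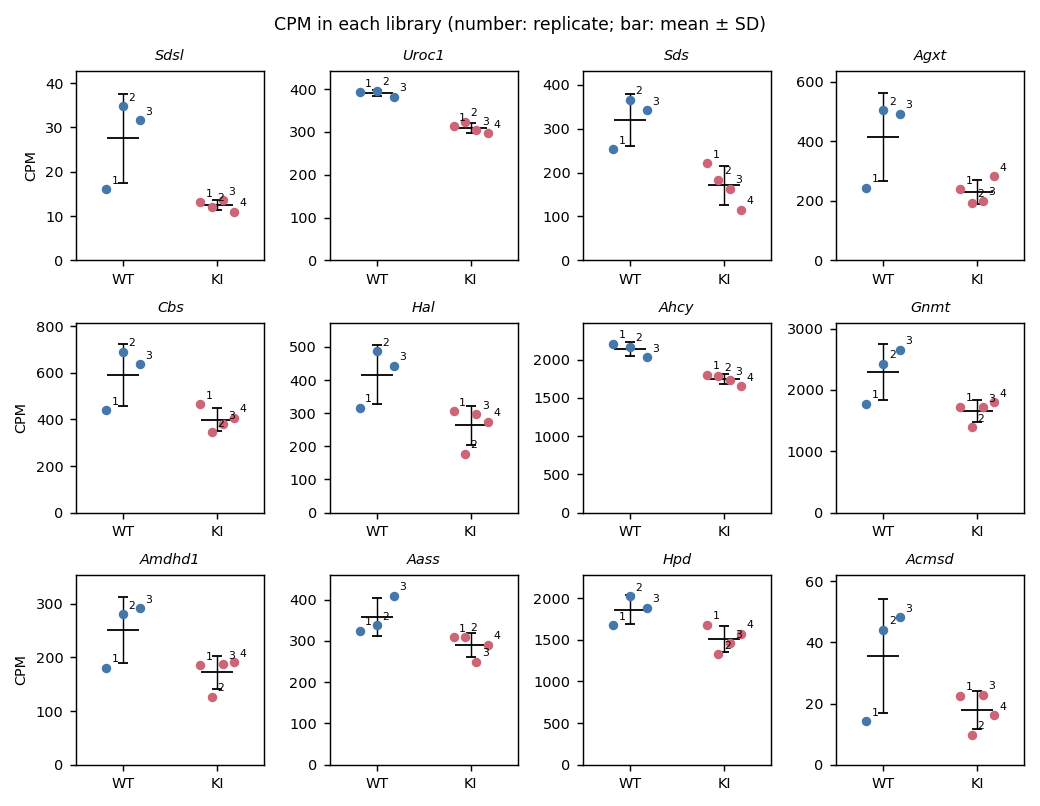
CPM (y axis from 0) of the 12 enzymes with an unadjusted p under 0.05, in each wild-type (blue) and knock-in (red) library; the small number is the replicate and the black bar the mean with its SD. Uroc1 and Ahcy show tight, separate groups, whereas in Agxt, Acmsd, Cbs, Gnmt, Amdhd1 and Hpd wild-type replicate 1 lies within the knock-in range.

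Glycine is split by the mitochondrial glycine cleavage system, whose measured subunits here were Gldc, the decarboxylase, Amt, the aminomethyltransferase, and Gcsh, the lipoyl carrier. Gldc had 97.2, 175 and 193 CPM in wild-type livers against 130.2, 88.5, 119 and 98.7 CPM in knock-in livers. Wild-type replicate 1 was within the knock-in range, and the difference was -0.51 with an SE of 0.23 (edgeR adjusted p = 0.477). Amt had a difference of -0.26 and Gcsh one of -0.02, which ranged from -0.07 to 0.02 as single libraries were left out. Shmt1, the cytosolic enzyme that interconverts serine and glycine, had 111 ± 18.4 CPM (SD, n = 3) and 113 ± 12.3 CPM (SD, n = 4) in wild type and knock-in. Sardh and Dmgdh, the mitochondrial dehydrogenases that strip methyl groups from sarcosine and dimethylglycine, were among the 8 genes with differences above 0, at 0.17 and 0.23 (edgeR adjusted p = 0.599 and 0.577).

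Agxt, the enzyme that uses alanine to turn glyoxylate into glycine, differed most in this group (chromosome 1, 93135240 to 93145421). It had 245, 505 and 492 CPM in wild-type livers against 239.6, 193, 200.3 and 282 CPM in knock-in livers. The first wild-type library lay within the knock-in range while the other two were far above it. Its log2 difference was -0.86 with an SE of 0.25 (edgeR adjusted p = 0.319; exact permutation p = 0.0571), and -1.12 with an SE of 0.15 without wild-type replicate 1 (edgeR adjusted p = 0.0334). It shrank to -0.69 without wild-type replicate 2 (edgeR adjusted p = 0.84). DESeq2 gave an adjusted p of 0.0414 and the authors' deposited table a corrected p of 0.0439. The 7 other measured genes of glycine and glyoxylate handling, Dld, Grhpr, Glyctk, Pipox, Glyat, Gatm and Gamt, had differences from 0.00 to 0.22, and 0 had an unadjusted p under 0.05 in edgeR.

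Methionine is activated by Mat1a to S-adenosylmethionine, used by Gnmt, recovered as homocysteine by Ahcy, and then either remethylated by Bhmt or drained to cysteine by Cbs and Cth. Per gene length, this group held the most abundant transcript of the 36, Gnmt, at 3792 ± 958 TPM (transcripts scaled to length and depth, by the authors) in wild type, ahead of Hpd at 1739 ± 239 and Ahcy at 1509 ± 41.9 (SD, n = 3). The lowest was Acmsd at 25.4 ± 14.1 TPM. Neighbours in this order such as Hpd, Ahcy and Mat1a (1493 ± 191 TPM) were within the spread of one another.

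Ahcy (chromosome 2, 155059310 to 155074497) had 2208, 2169 and 2035 CPM in wild-type livers against 1805, 1785, 1734 and 1653 CPM in knock-in livers. All 4 knock-in libraries were below wild type, including replicate 1 of wild type, which was the highest. The difference was -0.29 with an SE of 0.10 (edgeR adjusted p = 0.353; exact permutation p = 0.0286), and it ranged from -0.33 to -0.27 as single libraries were left out. DESeq2 called it (adjusted p = 0.0129), and the authors' deposited table gave a corrected p of 1. Near-identical copies of Ahcy, Gm4737 and Gm9826, had 899 and 0 counts over all libraries, where Ahcy had 565985.

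Gnmt, the glycine methyltransferase that buffers S-adenosylmethionine (chromosome 17, 46725664 to 46729168), had 1775, 2429 and 2659 CPM in wild-type livers against 1728, 1394, 1723 and 1798 CPM in knock-in livers. Its difference was -0.46 with an SE of 0.16 (edgeR adjusted p = 0.37), with wild-type replicate 1 inside the knock-in range. Cbs, cystathionine beta-synthase (chromosome 17, 31612623 to 31637199), had 439, 692 and 637 CPM in wild-type livers against 465, 346, 379 and 408 CPM in knock-in livers. It showed the same arrangement of libraries, with a difference of -0.56 and an SE of 0.17 (edgeR adjusted p = 0.331, and from 0.0534 to 0.844 as single libraries were left out). Cth and Mat1a had differences of -0.24 and -0.20 with overlapping groups.

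Bhmt, which remethylates homocysteine with betaine, varied most among the wild-type libraries, at 1176, 952 and 3121 CPM, against 2038, 1939.9, 2054 and 2881 CPM in knock-in livers. Wild-type replicate 3 alone was above every knock-in library. The difference of 0.35 with an SE of 0.38 (edgeR adjusted p = 0.767) became 1.07 when that library was left out (edgeR adjusted p = 0.239) and 0.05 when wild-type replicate 2 was (edgeR adjusted p = 0.993). Among 14 other measured genes of methionine, betaine and sulfur metabolism, 6 had differences above 0 and 8 below, and 0 had an unadjusted p under 0.05 in edgeR. Mat2a, the S-adenosylmethionine synthetase of extrahepatic tissues, had 0.28 with an SE of 0.13, and Csad, of taurine synthesis, had -0.34 with an SE of 0.22.

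Tyrosine is degraded by Tat, Hpd, Hgd and Fah in that order, with Tat, the aminotransferase, the classical glucocorticoid-induced gene of the liver. Hpd, the dioxygenase of the second step (chromosome 5, 123171807 to 123182727), had 1676, 2020.1 and 1887 CPM in wild-type livers against 1682, 1324, 1458 and 1575 CPM in knock-in livers. The ranges overlapped, with knock-in replicate 1 just above wild-type replicate 1, and the difference was -0.30 with an SE of 0.12 (edgeR adjusted p = 0.435; exact permutation p = 0.0857). Tat had 1392, 1461 and 810.0 CPM in wild-type livers against 838, 1600.3, 651 and 798 CPM in knock-in livers. Its spread within each genotype exceeded the difference of -0.33, whose SE was 0.32 (edgeR adjusted p = 0.738). That difference ran from -0.68 without knock-in replicate 2 to -0.18 without wild-type replicate 2. Hgd and Fah had -0.21 and -0.10. Of the other genes listed for this pathway, Qdpr, Pcbd1 and Gstz1 had differences of -0.22, -0.15 and -0.07, and 0 of these 3 had an unadjusted p under 0.05 in edgeR.

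Tryptophan enters the kynurenine pathway through Tdo2, the dioxygenase of hepatocytes, and passes Kmo, Kynu and Haao. Acmsd then directs the product away from NAD synthesis. Acmsd (chromosome 1, 127729413 to 127767978) had 14.2, 44.1 and 48.3 CPM in wild-type livers against 22.5, 9.86, 22.9 and 16.2 CPM in knock-in livers. Wild-type replicate 1 was lower than 3 of the 4 knock-in libraries, and the other two were above all of them. The difference was -0.99 with an SE of 0.41 (edgeR adjusted p = 0.453; exact permutation p = 0.143), -1.37 without wild-type replicate 1 (edgeR adjusted p = 0.0872) and -0.70 without wild-type replicate 3 (edgeR adjusted p = 0.616). Tdo2 had 1891 to 2244 CPM in wild-type livers against 1379 to 2009 CPM in knock-in livers, a difference of -0.28 with an SE of 0.15 (edgeR adjusted p = 0.526). Haao had -0.17, and Kmo and Kynu had 0.09 and 0.03. Of 6 other measured genes of the pathway, Afmid, the formamidase between Tdo2 and Kmo, had an unadjusted p of 0.00531. Its levels were 108, 124 and 134 CPM in wild-type livers against 105, 85.9, 91.8 and 92.1 CPM in knock-in livers, with no overlap, and its difference was -0.38 with an SE of 0.10 (edgeR adjusted p = 0.283).

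The branched chain amino acids leucine, isoleucine and valine are decarboxylated by one mitochondrial complex, whose E1 subunits are Bckdha and Bckdhb. Both were near equal between the genotypes. Bckdhb had 61.2 ± 1.75 CPM (SD, n = 3) and 61.1 ± 2.13 CPM (SD, n = 4) in wild type and knock-in, which left a difference of 0.00 (SE 0.07). Bckdha had -0.08 with an SE of 0.09, and 61.7% of its exonic bases lie in B3gnt8 on the opposite strand. Of 19 other measured genes of the pathway, 12 had differences above 0 and 7 below. An unadjusted p under 0.05 was reached by 2, both lower. Bcat2, the mitochondrial transaminase, had 17.0, 20.4 and 15.2 CPM in wild-type livers against 15.03, 12.2, 11.6 and 13.3 CPM in knock-in livers (-0.43, SE 0.13, edgeR adjusted p = 0.336). Ivd, isovaleryl-CoA dehydrogenase of leucine breakdown, had 215, 220.2 and 245 CPM in wild-type livers against 204, 179.6, 168 and 204 CPM in knock-in livers (-0.26, SE 0.10, edgeR adjusted p = 0.403). In both genes the groups did not overlap.

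Lysine is degraded by the bifunctional Aass (chromosome 6, 23072173 to 23132986), which had 325, 337 and 409.5 CPM in wild-type livers against 309, 310.4, 249.7 and 290.1 CPM in knock-in livers. The groups were separate by a narrow margin, and the difference was -0.30 with an SE of 0.12 (edgeR adjusted p = 0.409; exact permutation p = 0.0286). The later lysine genes Gcdh, Dhtkd1 and Ehhadh had differences of 0.16, -0.04 and 0.03. Got1, the cytosolic aspartate aminotransferase, had 187, 312 and 284 CPM in wild-type livers against 232, 181, 166 and 221 CPM in knock-in livers, a difference of -0.39 with an SE of 0.19 (edgeR adjusted p = 0.502). Its mitochondrial counterpart Got2 had a difference of 0.02.

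Proline and ornithine enzymes had a median difference of 0.03. Oat, ornithine aminotransferase, a pericentral gene, had 1154, 643 and 955 CPM in wild-type livers against 1426, 1227, 904 and 972 CPM in knock-in livers, a difference of 0.30 with an SE of 0.22 (edgeR adjusted p = 0.646). It was 0.50 without wild-type replicate 1 (edgeR adjusted p = 0.363) and 0.10 without wild-type replicate 2 (edgeR adjusted p = 0.963). Prodh, proline dehydrogenase, had 0.03 with an SE of 0.17, ranging from -0.11 to 0.25 as single libraries were left out. Aldh4a1, which completes proline oxidation, had -0.08, and 32.5% of its exonic bases are shared with Gm21969 on the same strand.

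Pooled over the groups, the other genes of these pathways were spread about evenly around 0. By group this did not always hold. All 7 of glycine were above 0 (median 0.02), and the 3 named for tyrosine, Qdpr, Pcbd1 and Gstz1, were below. Of 73 genes listed, 69 were tested, of which 36 had differences above 0 and 33 below, with a median of 0.00. An unadjusted p under 0.05 in edgeR was reached by 0 higher genes (5.60% of all genes) and 3 lower ones (4.97%), and 0 passed over all genes. All knock-in libraries lay below all wild-type libraries for 3 of the 69 (5.46% of all genes) and above them for 1 (5.48%). The difference between the 2 lists was not tested.

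**Figure D5:**
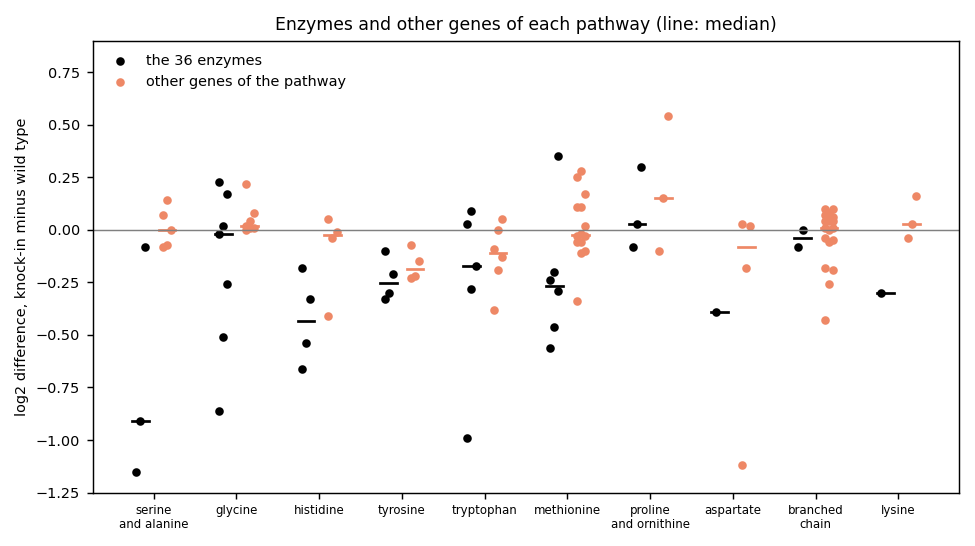
Log2 difference (knock-in minus wild type, y axis) of the 36 enzymes (black) and of the other measured genes of the same pathways (orange), by amino acid group, with a line at each median. The medians of the enzymes and of the other genes are -0.91 and 0.00 for serine and alanine, -0.44 and -0.03 for histidine, and -0.04 and 0.01 for the branched chain group.

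Transporters and regulators of amino acid catabolism were examined as 2 further lists. Of 12 amino acid transporters, 6 had differences above 0 and 6 below, and 0 had an unadjusted p under 0.05 in edgeR. Among 15 hormonal and transcriptional regulators, 9 were above 0 and 6 below, with a median of 0.01. An unadjusted p under 0.05 in edgeR was reached by 3, all lower, where 4.97% of all genes were lower and 5.60% higher. All knock-in libraries lay below all wild-type libraries for 2 of the 15 (5.46% of all genes) and above them for 1 (5.48%). Gcgr, the glucagon receptor, had 202, 215 and 183 CPM in wild-type livers against 174, 163, 174 and 172 CPM in knock-in livers, with no overlap and a difference of -0.23 with an SE of 0.08 (edgeR adjusted p = 0.388). Atf4, a transcription factor of the amino acid starvation response, had 68.2, 70.2 and 66.7 CPM in wild-type livers against 59.9, 62.2, 58.7 and 61.6 CPM in knock-in livers, again apart (-0.17, SE 0.07, edgeR adjusted p = 0.403). Crtc2, a coactivator of CREB in the fasting response, differed by -0.30 (SE 0.12, edgeR adjusted p = 0.414). Nr3c1, the glucocorticoid receptor, had 0.01.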

How the data were processed

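Raw whole-number counts were used, one total per gene in each library, deposited by the authors under that name. The TPM values are those the authors deposited, per the file headers, and were used only to order the enzymes by level. The other column used is the authors' deposited log2 fold change with its corrected p-value, made with a program that the sources used here do not name. A further 14 columns of values per library were not used. Reads were placed on mm10, per the submitters' processing notes; mapper, counter and annotation are not given there. Per the labels' protocols, polyadenylated RNA was made into cDNA with ordinary second-strand synthesis, so overlapping genes on opposite strands were treated as not separable.

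Libraries were grouped by their labels, and no pair within a genotype agreed within sampling noise (chi-square per degree of freedom 36.4 to 214). The edgeR package (4.0.16, under R 4.3.3) tested the counts after its default filter and TMM scaling, by a quasi-likelihood F test whose single term was genotype. A call was an adjusted p under 0.05 (Benjamini-Hochberg, 13989 genes). CPM values are TMM-scaled and given as mean ± SD over libraries. The SE was taken as the log2 difference over the square root of F. Alternatives used DESeq2 1.42.0, limma 3.58.1 (voom) and further settings given below, and the fits were tested on simulated counts. Exon overlaps and near-identical transcripts (blastn 2.17.0, at least 95% identity over 200 bases) come from GENCODE M21, which is on the same build. The members and gene lists were chosen with earlier results of these data known. Values per library are given for enzymes with an unadjusted p under 0.05 or groups that do not overlap, and others mostly by range or difference. Genes named outside this rule (Gldc, Tat, Bhmt, Oat, Got1, Mat2a, Csad, Got2, Nr3c1) were chosen after their values were seen. Of the other pathway genes Tdh did not pass the filter, nor did most muscle, kidney and adipose markers (1 of 8, 1 of 6 and 1 of 5 were tested), and Sqor, Pycr3, Mmut and Tf were not matched by name, although Mut stands for Mmut. Precision is limited by 3 and 4 libraries rather than by depth. The values of 1 other listed gene are not reported here.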

Additional observations from a re-analysis of the deposited data

Results flagged for a closer look

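Among the 4 knock-in libraries, 2 of the 36 enzymes had 1 library whose distance to its nearest neighbour, as a share of the group's whole range, exceeded Dixon's 95% critical value for 4 samples. Amdhd1 had 127 CPM in knock-in replicate 2, where the nearest library had 186 CPM (gap of 0.913 of the range). Bhmt had 2881 CPM in knock-in replicate 4, where the nearest had 2054 CPM (gap of 0.878). Chance flags about 1 in 20 groups, and groups of 3 wild-type libraries were not examined in this way.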

How the results depend on the processing

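The count of called genes over the whole table was 5, and it was 18 without an expression filter, 222 with DESeq2, 177 with the edgeR likelihood ratio test, 1 with the replicate number as a block, 29 without wild-type replicate 1 and knock-in replicate 1 (chosen after seeing the data), and 3 to 98 with single libraries left out. Among the 36 enzymes 0 were called, against 5 with DESeq2, 2 with the likelihood ratio test (Sds and Sdsl), 1 without both those libraries, and 0 to 2 with single libraries left out. The count of enzymes at an unadjusted p under 0.05 was 12, and it ranged from 7 to 16 with single libraries left out and was 18 without both libraries. Their median difference of -0.22 ranged from -0.27 to -0.14 with single libraries left out. Upper-quartile and RLE scaling, a CPM filter, robust dispersion and limma-voom called 0 of the enzymes. Under the replicate block Shmt1 had -0.04 and Kynu -0.02, opposite to their direction without it. Without both libraries Gcsh had 0.02, Kynu -0.07 and Bckdhb 0.00. With single libraries left out, the directions of Gcsh (-0.07 to 0.02), Shmt1 (-0.05 to 0.17, and 0.19 without both libraries), Kynu (-0.05 to 0.14), Prodh (-0.11 to 0.25) and Bckdhb (-0.02 to 0.02) also turned. The cause of these changes was not tested. Same-numbered libraries did not deviate together (correlation over genes of -0.06, 0.01 and -0.02 for numbers 1 to 3). Differently numbered libraries had correlations from -0.24 to 0.26. With so few libraries these values cannot show whether the numbers pair the libraries.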

Other observations

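Some other genes of amino acid metabolism, chosen after their values were seen, varied among the wild-type libraries more than between the genotypes. Asns, asparagine synthetase, had 0.643, 14.7 and 5.22 CPM in wild-type livers against 2.69, 2.12, 3.45 and 4.31 CPM in knock-in livers (log2 difference -1.12, SE 0.73, edgeR adjusted p = 0.601). Hdc, histidine decarboxylase, had 6.64, 6.49 and 2.68 CPM in wild-type livers against 4.99, 6.29, 6.92 and 2.68 CPM in knock-in livers. Slc7a2, the arginine and lysine transporter of hepatocytes, had 709, 896 and 455 CPM in wild-type livers against 671, 490.1, 399.7 and 340.1 CPM in knock-in livers (log2 difference -0.53, SE 0.27, edgeR adjusted p = 0.519).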
